A study of Mus musculus with 33 samples.

Results

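Gene expression was compared between 5 liver tumours from mice with an E2F1 knock-in (1KI) and 7 livers of wild-type mice (wt), all taken at 12 months of age. These 12 samples were chosen by their titles and by the first of the 2 normalizations in the series, and they are 12 of its 33 columns, which come from 21 arrays. The submitters label the 1KI samples as spontaneous hepatocellular carcinoma and the wt samples as normal liver, so genotype and tumour status coincide and cannot be told apart. All mice were on a mixed background of FVB/NT, 129S1/Svlmj and C57BL/6NT, and the labels name no treatment. Livers of E2f3a knock-out mice (3aKO, 5 arrays in the same normalization, normal liver) and 4 tumours from mice with an E2F3b knock-in (3bKI, in the other normalization, hepatocellular carcinoma) are cited only for their values. The labels give neither the locus that holds the knock-in nor its zygosity, and they give no sex. They do not say whether the samples are separate animals, so the p-values measure only the spread between these samples.

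E2F1 is a transcription factor that binds DNA together with a DP partner and switches on genes of DNA replication and cell division. The retinoblastoma protein and its relatives hold it inactive until a cell commits to divide. E2F1 can also raise p53 activity, and hepatocytes of the adult liver rarely divide. Hepatocellular carcinoma is the main cancer that arises from hepatocytes.

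Levels are log2 signals of Affymetrix probe sets, so a difference of 1 is a doubling. Array medians lay between 5.49 and 5.52 in 1KI and between 5.48 and 5.53 in wt. The tissue label fitted the data: the 26 measured genes of hepatocyte secreted proteins had mean levels of 13.72 to 13.81 in the 1KI arrays and 13.64 to 13.87 in the wt arrays. The median SD over genes was 0.186 in 1KI and 0.177 in wt. Tumours 3 and 4 stood apart from the other 10 arrays. Their scores on the first principal component of all arrays in the normalization, which held 32.3% of the variance, were 61.2 and 69.9, against -17.1 to 5.11 in the other 1KI and wt arrays. As a sign of RNA quality, the beta-actin signal at the 3' end over that at the 5' end had a log2 value of 0.911 to 1.28 in 1KI and 0.631 to 1.38 in wt. Xist and Y-linked genes marked 2 of the 5 tumours and 3 of the 7 wt livers as female and the rest as male, and tumours 3 and 4 were both male. In bulk tissue, fewer cells of a type and less RNA per cell cannot be told apart.

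Genes called higher in the 1KI tumours included 6 of 29 measured interferon-induced genes, 4 of 22 p53 targets, 2 of 33 matrix and stellate cell genes, the growth factor Igf2 and the AP-1 factor Jun, and few genes were lower. Of 18193 genes tested, 38 (0.209%) were higher and 7 (0.0385%) were lower at an adjusted p under 0.05 (limma with Benjamini-Hochberg adjustment over all genes), which is 0.247% in either direction. Such genes are called here. Of the calls, 84.4% were higher, and with quantile normalization this share was 74.2%, from 23 higher and 8 lower genes. Adjusted p of the called genes ran from 0.00489 to 0.0474. An unadjusted p under 0.05 was reached by 3474 genes (19.1%), of which 1654 were higher (9.09%) and 1820 lower. Of all genes, 43.4% had a difference above 0. Counts of list members called higher or above 0 are to be read beside these shares of 0.209% and 43.4%.

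**Figure D1:**
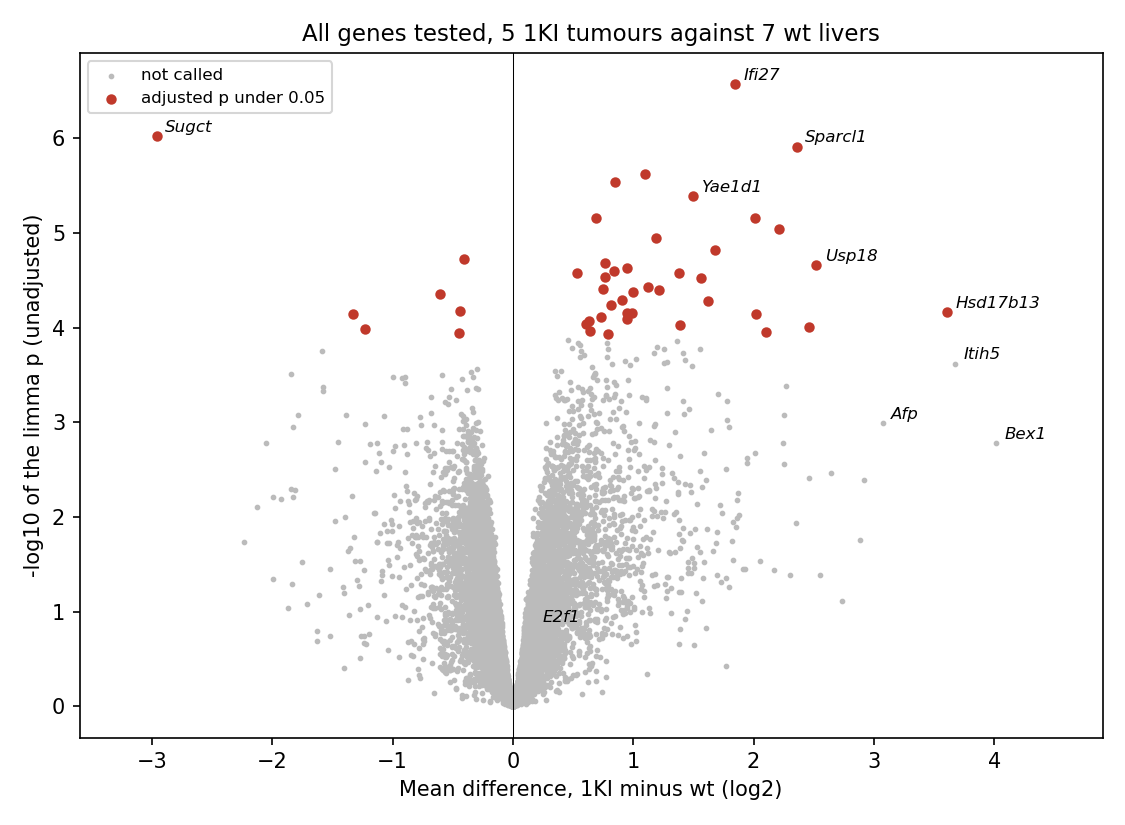
Mean difference between 1KI and wt (x axis, log2) against -log10 of the unadjusted limma p (y axis) for the 18193 genes tested, with the 45 called genes in red. The called genes lie mostly on the right (38 higher, 7 lower), and Bex1, Itih5 and Afp have large differences without a call.

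Among the called genes, 19 were higher and 3 lower by at least 1 on the log2 scale. Without regard to the test, 220 genes had a mean at least 1 higher and 84 a mean at least 1 lower in 1KI. For 43 of the 45 called genes the 1KI and wt values did not overlap, the exceptions being Hsd17b13 and Timp3. Over all genes, every tumour lay above every wt liver for 201 genes (1.10%) and below for 160 (0.879%), together 1.98%. The median log2 difference of all genes was -0.0329.

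The counts rested on single arrays. Without wt 1, 2, 3, 4, 5, 6 or 7, the genes called higher numbered 12, 8, 23, 5, 5, 29 and 19, in that order, and those called lower 1, 1, 3, 1, 1, 4 and 5. Without tumour 1, 2, 3, 4 or 5 they numbered 56, 59, 17, 31 and 23 higher and 14, 15, 2, 3 and 4 lower. Without wt 4 or wt 5, 39 of the 45 calls were lost each time. Ifi27, Sugct, Ahnak, Gria3, Sparcl1 and Yae1d1 were called in each of the 12 fits that left out 1 array. Each of the other 39 genes lost its call in at least 1 of these fits, so below the number of these fits that kept a call is given for the main genes. Without tumours 3 and 4 together, 38 genes were higher and 2 lower (0.220%), and 19 and 1 of these were among the genes called with all 5 tumours. All 45 called genes kept their sign, with 0.619 to 1.37 times the difference.

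**Figure D2:**
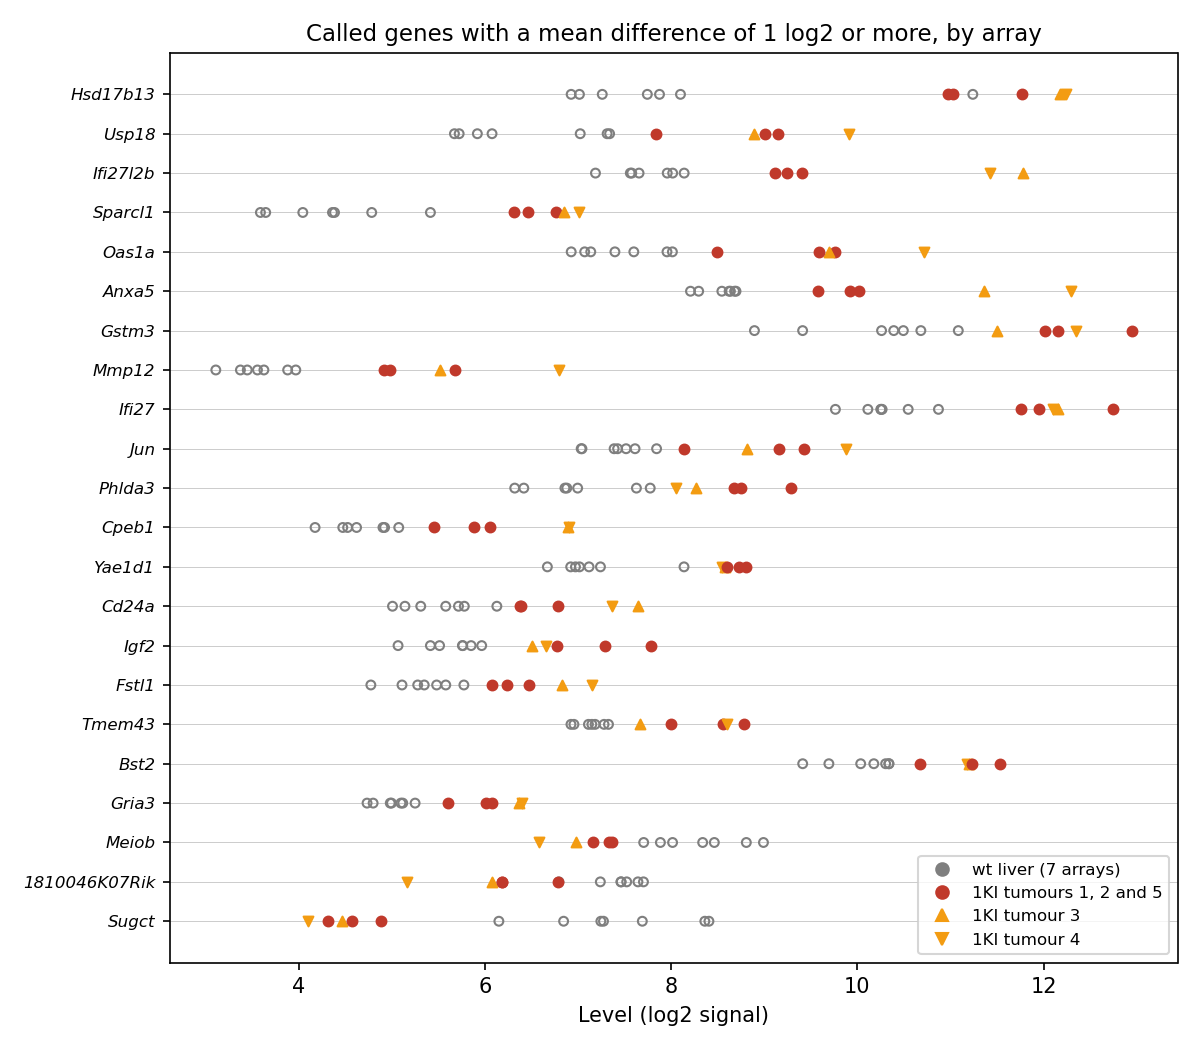
Levels (x axis, log2 signal) of the 22 called genes with a mean difference of at least 1 in each of the 7 wt livers (open grey circles), in 1KI tumours 1, 2 and 5 (red circles) and in 1KI tumours 3 and 4 (orange triangles). In all of them except Hsd17b13 the tumours lie to one side of every wt liver.

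The E2F genes themselves came first. E2f1 had levels of 6.15, 6.16, 6.47, 5.83 and 6.36 in tumours 1 to 5 and of 5.84 to 6.22 (median 6.08) in wt. The groups overlapped, and the difference of 0.17 ± 0.11 (SE) was not called (adjusted p = 0.389). Further probe sets of E2f1 gave 0.32 and -0.16, neither called when limma tested every probe set (adjusted p = 0.273 and 0.431). E2f3, whose gene makes the E2f3a and E2f3b proteins, had levels of 7.14, 7.23, 7.81, 7.6 and 7.28 in the tumours and 6.59 to 7.03 (median 6.89) in wt. All 5 tumours were above all wt livers, with a difference of 0.57 ± 0.13 that missed the threshold (adjusted p = 0.0775) and was 0.38 without tumours 3 and 4. A second probe set of E2f3 gave 0.27 (adjusted p = 0.1625 when limma tested every probe set). The repressor E2f7 ran at 4.96, 5.25, 4.28, 4.95 and 4.86 in the tumours and 5.15 to 7.2 (median 5.34) in wt, where wt 5 held the highest value, and its difference was -0.8 ± 0.32 (adjusted p = 0.207). Tfdp1, a DP partner, differed by 0.31 ± 0.08 and Rbl1, a relative of the retinoblastoma protein, by 0.67 ± 0.27 (adjusted p = 0.117 and 0.213). None of the 13 E2F and pocket protein genes was called at the adjusted p, 4 had an unadjusted p under 0.05 (3 above 0 and 1 below, beside 9.09% of all genes above 0 and 1820 of 18193 below), and their median difference was 0.12 beside -0.0329 for all genes.

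Genes on the chromosome of E2f3 made up 4 of the 45 called genes (8.89%) and 702 of 18029 genes with a known chromosome (3.89%). The 4 were Sugct, Yae1d1, Polk and Plk2, which lie 89, 85, 431 and 505 measured genes from E2f3. Sugct, which encodes an enzyme of glutarate metabolism, had levels of 4.31, 4.88, 4.46, 4.1 and 4.57 in the tumours and 6.15 to 8.41 (median 7.27) in wt. Every tumour lay below every wt liver, and the gene fell by 2.96 (SE 0.34, adjusted p = 0.00743), a fold of 7.78. Yae1d1, a factor in the maturation of an iron-sulphur protein needed for ribosome recycling, had levels of 8.73, 8.81, 8.58, 8.54 and 8.6 in the tumours and 6.67 to 8.14 (median 7.02) in wt. The tumours were close together and above all wt livers, of which wt 2 was highest at 8.14 and the next 7.24, and the gene rose by 1.5 ± 0.2 (adjusted p = 0.0125).

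On the probe sets used, the 3aKO livers had values near those of the tumours for Sugct and Yae1d1. Sugct was at 4.31, 4.48, 4.55, 4.82 and 4.67 in the 5 normal 3aKO livers, a mean of 4.57 beside 4.46 in 1KI and 7.42 in wt. Yae1d1 was at 8.49, 8.80, 8.80, 8.49 and 8.42 there, a mean of 8.60 beside 8.65 in 1KI and 7.15 in wt. The 3bKI tumours differed from wt in their own normalization by -2.64 for Sugct and 1.42 for Yae1d1. Polk and Plk2 did not share this pattern: their 3aKO means of 6.54 and 7.67 were near the wt means of 6.65 and 7.61. Their 1KI means were 7.28 and 8.42. These comparisons use the same wt mice, so the values are not independent, and they were not tested here. Other probe sets of Sugct and Yae1d1 gave smaller or opposite differences: -0.73 for a second probe set of Sugct, and -0.37 and 0.55 for the other 2 of Yae1d1. On that second probe set of Sugct the 3aKO mean of 6.42 was near the wt mean of 6.34 and not the 1KI mean of 5.61. The likeness of 3aKO liver to the tumours for Sugct therefore rests on 1 of 2 probe sets.

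**Figure D3:**
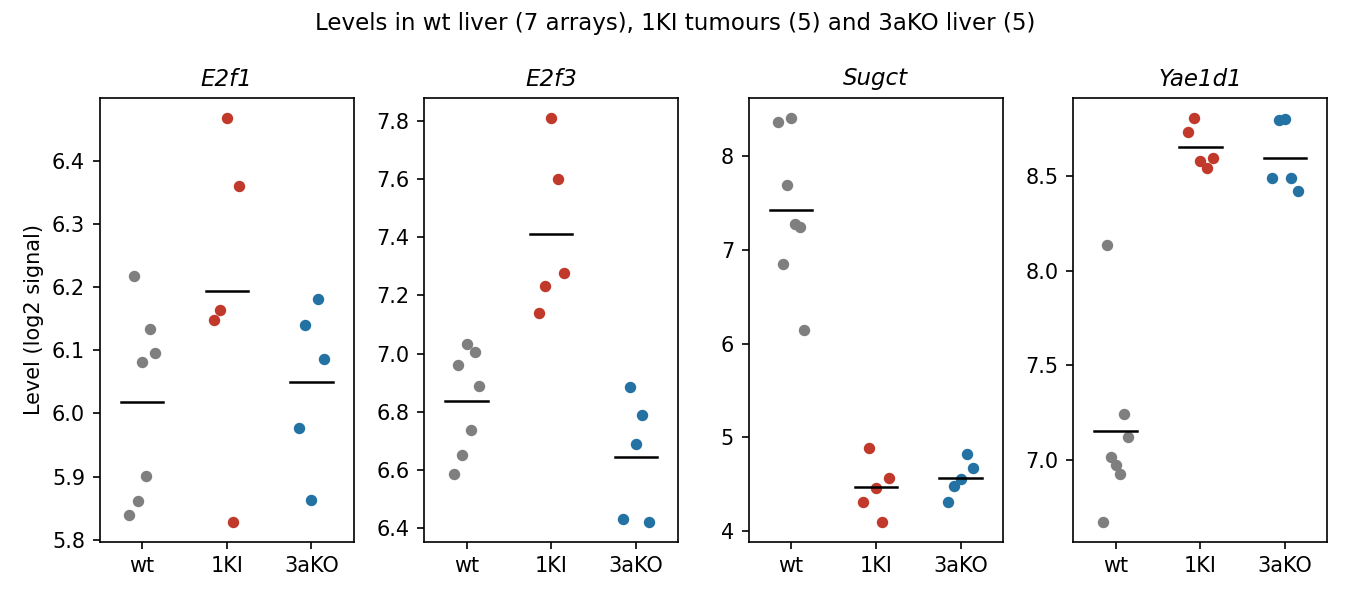
Levels (y axis, log2 signal, a separate scale in each panel) of E2f1, E2f3, Sugct and Yae1d1 in each wt liver (7), 1KI tumour (5) and 3aKO liver (5), with the mean of each group as a bar. E2f1 overlaps between groups, while Sugct and Yae1d1, on the probe sets used, lie at like levels in 1KI tumours and normal 3aKO livers (means 4.46 and 4.57, and 8.65 and 8.60).

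Interferon-induced genes encode antiviral proteins, and their transcription is switched on by STAT and IRF factors that bind an element with a repeated GAAA, the ISRE. Oas1a, Bst2 and Ifih1 are the called members of this list whose promoters, in the RefSeq table used (build GRCm38.p6, 250 bases before to 50 after the start), held the word GAAANNGAAA on either strand. Their windows are shown because the interferon list had the most called genes, and capitals mark the matches, which overlap in Oas1a and Bst2. All 3 lie on the minus strand, at chr5:120907500-120907575, chr8:71537557-71537632 and chr2:62646206-62646253.

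Oas1a: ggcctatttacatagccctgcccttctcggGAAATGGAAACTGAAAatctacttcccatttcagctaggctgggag
Bst2: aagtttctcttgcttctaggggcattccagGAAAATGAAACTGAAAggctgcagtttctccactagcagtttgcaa
Ifih1: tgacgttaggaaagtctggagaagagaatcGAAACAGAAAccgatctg

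The matches begin at -20 and -14 from the start in Oas1a, at -130 and -124 in Bst2 and at 32 in Ifih1. Of the 19 interferon-list genes with a promoter in the table, 10 held the word (52.6%), against 523 of 14368 genes on the array (3.64%). Over all 32851 promoters of the table it stood in 3.44%. Among the 38 genes called higher, 27 had a promoter and 5 of these held it (Oas1a, Bst2, Ifih1, Igf2 and Plk2). Ifi27, Usp18 and Ifi27l2b had none in the table. A match describes the letters of the window and not binding.

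Of 29 measured interferon-induced genes, 6 were called higher and none lower, beside 0.209% of all genes, and 28 were above 0. Their median difference was 0.899 with all tumours and 0.729 without tumours 3 and 4, when 3 were called. Ifi27, a mitochondrial interferon-induced protein, had levels of 11.75, 12.74, 12.16, 12.1 and 11.95 in the tumours and 9.76 to 10.87 (median 10.26) in wt. All tumours were above all wt livers, and Ifi27 rose by 1.85 ± 0.19 (adjusted p = 0.00489), the lowest p of all genes, a fold of 3.60. Oas1a, which makes the 2',5'-oligoadenylates that activate RNase L, had levels of 8.49, 9.76, 9.7, 10.71 and 9.59 and, in wt, 6.93 to 8.01 (median 7.4). Tumour 4 was highest, no tumour overlapped with wt, and it rose by 2.21 ± 0.31 (adjusted p = 0.0185, called in 9 of 12 fits without 1 array).

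Usp18, the protease that removes ISG15 and damps interferon signalling, had levels of 7.84, 9.15, 8.89, 9.91 and 9.01 in the tumours and 5.67 to 7.34 (median 6.08) in wt. It rose by 2.52 ± 0.39 (adjusted p = 0.0270), with tumour 1 nearest to wt, and was called in 6 of 12 fits. Bst2, or tetherin, which holds budding virus at the cell surface, had levels of 10.67, 11.54, 11.2, 11.18 and 11.23 and 9.41 to 10.34 (median 10.18) in wt. Its groups did not overlap, with a difference of 1.12 ± 0.18 (adjusted p = 0.0321, 6 of 12 fits). The RNA sensor Ifih1 rose by 0.9 ± 0.15 (adjusted p = 0.0355, 4 of 12 fits), from a wt range of 8.41 to 9.26 (median 8.87) to levels of 9.59, 9.51, 9.75, 10.01 and 9.79. Ifi27l2b rose by 2.46 ± 0.45 (adjusted p = 0.0452, 3 of 12 fits), and its levels of 9.11, 9.4, 11.78, 11.42 and 9.24 were highest in tumours 3 and 4, without which it rose by 1.53 (adjusted p = 0.00644).

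Irf7, the factor that amplifies the interferon response, and Oasl1 are named after their values were seen, since they stood just outside the threshold. Irf7 differed by 1.55 ± 0.3 (adjusted p = 0.0563) and Oasl1 by 1.28 ± 0.25 (adjusted p = 0.0629). The chemokine Cxcl10, itself induced by interferon, ran at 6.99, 8.21, 8.45, 8.74 and 7.94 in the tumours and 6.01 to 7.69 (median 6.7) in wt, which overlapped (difference 1.32 ± 0.37, adjusted p = 0.137). Per array, the mean level of the list was 7.81, 8.46, 8.17, 8.76 and 8.30 in tumours 1 to 5 and 7.01 to 7.86 in wt, so tumour 1 was within the wt range. The 15 measured MHC and antigen processing genes had no call, with 8 above 0, 7 below and a median of 0.0245. Without tumours 3 and 4, 3 were above 0 and 12 below, and the median was -0.277.

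Targets of p53 respond to DNA damage and growth stress, and 4 of 22 measured were called higher, beside 0.209% of all genes. They were Phlda3, Plk2, Ddit4l and Polk, 18 of 22 were above 0 beside 43.4% of all genes, and the median of 0.513 was 0.663 without tumours 3 and 4. Phlda3, which blocks AKT at the membrane, had levels of 8.75, 8.67, 8.27, 8.05 and 9.29 in the tumours and 6.32 to 7.77 (median 6.88) in wt. The groups did not overlap, tumour 5 was highest, and Phlda3 rose by 1.62 ± 0.27 (adjusted p = 0.0355, 4 of 12 fits). Plk2, a polo-like kinase, had levels of 8.31, 8.83, 8.04, 8.22 and 8.71 against 7.35 to 7.83 (median 7.58) in wt and rose by 0.81 ± 0.14 (adjusted p = 0.0375, 4 of 12 fits). A second, dimmer probe set of Plk2 gave -0.1. Ddit4l, an inhibitor of mTOR signalling, had levels of 6.4, 6.28, 5.65, 5.56 and 6.3 against 5.06 to 5.33 (median 5.3) in wt, with tumours 3 and 4 lowest. Its difference was 0.79 ± 0.14 with all tumours (adjusted p = 0.0474, 2 of 12 fits) and 1.08 without tumours 3 and 4 (adjusted p = 0.000289).

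Polk, the translesion DNA polymerase kappa, rose by 0.63 ± 0.11 (adjusted p = 0.0422, 2 of 12 fits). The best known p53 targets, named here for that reason and after their values were seen, were not called. Cdkn1a, which encodes the cell cycle inhibitor p21, had levels of 8.68, 11.2, 9.62, 9.36 and 9.74 in the tumours and 6.6 to 9.29 (median 7.31) in wt. Tumour 1 lay within the wt range and the other 4 above it, and the difference was 2.01 ± 0.53 (adjusted p = 0.118). Mdm2 differed by 0.58 ± 0.14, Ccng1 by 0.66 ± 0.22 and Eda2r by 1.02 ± 0.31, with adjusted p of 0.100, 0.175 and 0.156.

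Immediate early factors answer growth signals and stress, and Jun was the called one of 19 measured, beside 0.209% of all genes called higher. Jun had levels of 8.13, 9.43, 8.81, 9.88 and 9.16 in the tumours and 7.03 to 7.84 (median 7.42) in wt. Every tumour was above every wt liver, and Jun rose by 1.68 ± 0.25 (adjusted p = 0.0253, 10 of 12 fits, lost without wt 4 or wt 5). Egr1 ran at 9.11, 8.7, 11.11, 12.02 and 9.2 in the tumours and 6.46 to 8.74 (median 7.91) in wt. Tumours 3 and 4 were the high ones, and the difference of 2.24 ± 0.57 (adjusted p = 0.114) was 1.22 without them. Atf3 had levels of 6.72, 6.89, 7.45, 10.5 and 7.15 against 5.36 to 6.62 (median 6.02) in wt, with every tumour above every wt liver and tumour 4 far the highest. It had a difference of 1.72 ± 0.54 (adjusted p = 0.160). Of the list, 18 of 19 genes were above 0 with all tumours and 13 of 19 without tumours 3 and 4, and the median was 0.541 and then 0.21. The AP-1 word TGANTCA stood in none of the 15 promoters of this list in the table and in 7.5% of those of all genes on the array.

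Fetal liver genes that return in liver tumours differed widely from tumour to tumour. Igf2 and Cd24a were called among 26 measured oncofetal and liver tumour markers, beside 0.209% of all genes called higher. Of the 26, 20 were above 0, beside 43.4% of all genes. The list's median was 0.849 with all tumours and 0.468 without tumours 3 and 4. Igf2, the fetal insulin-like growth factor, had levels of 7.78, 7.29, 6.5, 6.65 and 6.77 in the tumours and 5.07 to 5.97 (median 5.76) in wt. The tumours were all above wt, tumours 1 and 2 most, and Igf2 rose by 1.38 ± 0.22 (adjusted p = 0.0270, 8 of 12 fits) and by 1.66 without tumours 3 and 4. A second, dimmer probe set of Igf2 gave 0.04, with means of 3.69 in wt and 3.74 in 1KI. Cd24a, a surface protein of progenitor cells, had levels of 6.38, 6.78, 7.64, 7.36 and 6.39 and 5.01 to 6.13 (median 5.58) in wt. It rose by 1.39 ± 0.25 (adjusted p = 0.0433, 2 of 12 fits), with tumours 3 and 4 highest.

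Alpha-fetoprotein (Afp), the serum marker of hepatocellular carcinoma, ran at 8.95, 6.64, 11.16, 10.59 and 6.37 in the tumours and 5.4 to 6.09 (median 5.61) in wt. All tumours were above wt, but tumours 2 and 5 by far less than tumours 3 and 4, and the difference of 3.07 ± 0.73 was not called (adjusted p = 0.100). Bex1 had the widest spread of this kind, with levels of 5.19, 5.06, 11.73, 8.18 and 4.22 in the tumours and 2.67 to 3.09 (median 2.84) in wt. Its difference was 4.02 ± 1.01 with all tumours (adjusted p = 0.114) and 1.96 without tumours 3 and 4 (adjusted p = 0.00138). Its wt levels were near the mean signal of Y-linked genes on the arrays marked as female (2.86 to 3.8), so its difference starts near background and may be understated. Itih5, a protein that binds hyaluronan, ran at 7.77, 7.65, 11.64, 10.85 and 6.8 against 4.75 to 5.93 (median 5.15) in wt, with a difference of 3.68 ± 0.73 (adjusted p = 0.0632) and of 2.14 without those tumours (adjusted p = 0.0175). Golm1, a Golgi protein released by liver tumours, ran at 6.86, 7.49, 10.52, 10.6 and 7.42 against 6.03 to 6.79 (median 6.18) in wt (difference 2.26 ± 0.61, adjusted p = 0.131).

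Plagl1, an imprinted zinc finger factor, went the other way among the tumours, at 7.53, 7.3, 6.95, 6.54 and 7.37 against 6.04 to 6.69 (median 6.28) in wt. Tumour 4 lay in the wt range, and the difference was 0.82 ± 0.16 with all tumours (adjusted p = 0.0632) and 1.09 without tumours 3 and 4 (adjusted p = 0.00644). The receptor Igf1r differed by -0.37 ± 0.11 and the binding protein Igfbp3 by 1.17 ± 0.28, neither of them called (adjusted p = 0.147 and 0.102). Igf2 was the called one of 16 measured genes of the insulin-like growth factor axis, beside 0.209% of all genes called higher. That list's median was 0.0372, or 0.226 without tumours 3 and 4.

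Genes of the extracellular matrix and of the stellate cells that make it had mostly higher means in the tumours. Of 33 measured, 31 were above 0 and 9 had every tumour above every wt liver, beside 1.10% of all genes. The median was 0.56 with all tumours and 0.492 without tumours 3 and 4. Called were Sparcl1 and Pdgfrb, beside 0.209% of all genes called higher. Sparcl1, a secreted relative of SPARC, had levels of 6.46, 6.76, 6.84, 7.01 and 6.31 in the tumours and 3.59 to 5.41 (median 4.36) in wt. The tumours were tightly grouped above wt, and Sparcl1 rose by 2.36 ± 0.28 (adjusted p = 0.00743). Sparcl1, like the called genes Tnc, Cpeb1 and Ddit4l, was among the 40% dimmest genes. Its mean in normal 3aKO liver was 5.63, between the wt mean of 4.31 and the 1KI mean of 6.68. Pdgfrb, the receptor that marks stellate cells and pericytes, had levels of 7.93, 7.79, 7.63, 7.73 and 7.18 and 6.73 to 7.12 (median 6.89) in wt, and rose by 0.76 ± 0.12 (adjusted p = 0.0272, 5 of 12 fits).

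The collagens Col1a2 and Col6a1 had no overlap between groups and stood just outside the threshold. Col1a2 ran at 8.74, 9.18, 9.77, 10.02 and 8.8 against 7.81 to 8.62 (median 7.97) in wt (difference 1.2 ± 0.23, adjusted p = 0.0563). Col6a1 differed by 0.55 ± 0.11 (adjusted p = 0.0558) and, without tumours 3 and 4, by 0.66 (adjusted p = 0.0430). Serpinh1, Fstl1 and Tnc are called genes that the list does not hold, set here after their values were seen. The collagen chaperone Serpinh1 rose by 0.99 ± 0.17, the secreted glycoprotein Fstl1 by 1.22 ± 0.2 and the matrix protein tenascin C (Tnc) by 0.84 ± 0.13, with adjusted p of 0.0384, 0.0321 and 0.0270. They were called in 4, 6 and 7 of 12 fits.

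Of 16 measured metalloproteinases and their inhibitors, Mmp12 and Timp3 were called higher, beside 0.209% of all genes. Mmp12, the macrophage elastase, had levels of 4.98, 5.68, 5.52, 6.79 and 4.92 in the tumours and 3.11 to 3.97 (median 3.56) in wt. No tumour overlapped with wt, tumour 4 was highest, and Mmp12 rose by 2.01 ± 0.28 (adjusted p = 0.0160, 10 of 12 fits, lost without wt 4 or wt 5). Its wt levels were also near the signal of Y-linked genes in female arrays, and it was among the 40% dimmest genes, so its difference too may be understated. Timp3, which inhibits metalloproteinases in the matrix, rose by 0.95 ± 0.17 (adjusted p = 0.0384, 2 of 12 fits), although tumour 2 at 8.37 lay below the highest wt liver at 8.44. Adamts1 differed by 0.85 ± 0.18 (adjusted p = 0.0775).

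Of 23 measured endothelial genes, 1 was called, beside 0.209% of all genes called higher. Plvap, the diaphragm protein of fenestrated vessels, had levels of 9.31, 9.0, 9.26, 9.78 and 9.23 against 7.77 to 8.53 (median 8.51) in wt, and rose by 1.0 ± 0.16 (adjusted p = 0.0321, 4 of 12 fits). Cd34, a marker of capillary endothelium, ran at 4.98, 4.86, 7.24, 8.17 and 4.66 against 3.45 to 4.95 (median 4.44) in wt, with tumours 3 and 4 high (difference 1.61 ± 0.56, adjusted p = 0.182, and 0.46 without them). Pecam1 differed by 0.69 ± 0.22 (adjusted p = 0.162). The basement membrane protein Nid1 ran at 8.37, 7.89, 11.58, 11.35 and 7.92 against 7.25 to 7.89 (median 7.51) in wt, and its difference of 1.86 ± 0.62 (adjusted p = 0.171) was 0.50 without tumours 3 and 4. The mean level of the endothelial list was 7.84 to 8.29 in the tumours and 7.76 to 8.0 in wt, and the part of endothelial or stellate cell number in the matrix genes was not tested.

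Anxa5, a protein that binds phosphatidylserine on membranes, was the called one of 15 measured annexins and S100 proteins, beside 0.209% of all genes. Its levels were 10.01, 9.92, 11.36, 12.29 and 9.58 in the tumours and 8.21 to 8.7 (median 8.62) in wt. All tumours were above wt, tumours 3 and 4 most, and Anxa5 rose by 2.11 ± 0.39 with all tumours (adjusted p = 0.0472, 4 of 12 fits) and by 1.31 without those (adjusted p = 0.00249). Anxa2 ran at 8.78, 9.48, 11.66, 12.21 and 9.09 against 8.05 to 8.67 (median 8.19) in wt without a call (difference 1.94 ± 0.52, adjusted p = 0.129). S100a6 differed by 1.09 ± 0.31 (adjusted p = 0.141).

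Of 25 measured genes of the actin cytoskeleton and adhesion list, 23 were above 0 and none was called. Tpm1, Tpm4 and Tuba1a, which build actin filaments and microtubules, differed by 0.91 ± 0.22, 0.91 ± 0.22 and 0.68 ± 0.15, with adjusted p of 0.103, 0.102 and 0.0775. All 5 tumours were above all wt livers for each. Their differences were 0.49, 0.49 and 0.40 without tumours 3 and 4. The cholangiocyte and progenitor list had no call among 15 genes and a median of 0.419, and in it the tight junction gene Cldn7 differed by 1.1 ± 0.24 and the keratin Krt8 by 0.88 ± 0.2 (adjusted p = 0.0775 and 0.0881). Without tumours 3 and 4, 2 of the 15 were called, beside 0.220% of all genes. They were Cldn7 at 0.59 and the annexin Anxa13 at 1.37 (adjusted p = 0.0336 and 0.0247). With all tumours Anxa13 differed by 0.84 ± 0.3 (adjusted p = 0.191).

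Defence against oxidants and electrophiles is run by the factor NRF2, and its gene Nfe2l2 was called higher. Nfe2l2 had levels of 10.59, 11.14, 11.11, 10.77 and 10.71 in the tumours and 9.73 to 10.35 (median 10.14) in wt. The groups did not overlap, and it rose by 0.75 ± 0.12 (adjusted p = 0.0321, 6 of 12 fits). Gstm3, a glutathione transferase, had levels of 12.15, 12.95, 11.5, 12.34 and 12.01 against 8.89 to 11.08 (median 10.39) in wt, and rose by 2.02 ± 0.35 (adjusted p = 0.0384, in none of the 12 fits without 1 array). Gpx4, the peroxidase that clears lipid peroxides, rose by 0.64 ± 0.12 (adjusted p = 0.0466, 2 of 12 fits), and without tumours 3 and 4 its difference was 0.42 with no call (adjusted p = 0.0661). Of 24 measured glutathione transferases and NRF2 targets, 18 were above 0, beside 43.4% of all genes, with a median of 0.37. Gstm3 was the called one, beside 0.209% of all genes called higher. Ephx1, Gsta4 and Srxn1 differed by 0.69 ± 0.22, 0.44 ± 0.13 and 1.11 ± 0.33 without a call (adjusted p = 0.156, 0.147 and 0.148), and Srxn1 had a single high tumour, tumour 4 at 11.36.

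Hsd17b13, a lipid droplet enzyme of hepatocytes, had the largest difference of the called genes. Its levels were 10.97, 11.77, 12.17, 12.24 and 11.02 in the tumours and 6.93 to 11.24 (median 7.74) in wt. One wt liver, wt 3, lay within the tumour range and the other 6 far below it, and Hsd17b13 rose by 3.61 ± 0.63 (adjusted p = 0.0384, 2 of 12 fits). The 3aKO livers were divided too, at 7.31, 7.47, 10.54, 12.51 and 12.00. The 3bKI tumours differed from wt by -1.11, and a second probe set of the gene differed by -0.45 between 1KI and wt. The call therefore rests on 1 of 2 probe sets of this gene.

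Cell division genes are the textbook targets of E2F. Cdk1, Cdca8, Ube2c and Uhrf1 were among the members of the mitosis and replication lists with the lowest p and a promoter match. The choice did not cover every chromosome. A match was a word bound by E2F (TTTCCCGC, TTTCGCGC, TTTGCCGC or TTTGGCGC) or the CHR word TTTGAA of late cell cycle genes, on either strand. Capitals mark the matches, and none of these genes was called. The windows are at chr10:69352890-69353073 and chr4:124936868-124936934 on the minus strand and chr2:164769870-164769937 and chr17:56304098-56304165 on the plus strand (RefSeq, GRCm38.p6).

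Cdk1: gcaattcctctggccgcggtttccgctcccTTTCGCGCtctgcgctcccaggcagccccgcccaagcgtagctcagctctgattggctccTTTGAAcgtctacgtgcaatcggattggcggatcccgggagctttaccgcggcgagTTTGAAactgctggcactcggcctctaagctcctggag
Cdca8: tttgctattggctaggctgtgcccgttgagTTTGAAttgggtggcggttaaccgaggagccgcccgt
Ube2c: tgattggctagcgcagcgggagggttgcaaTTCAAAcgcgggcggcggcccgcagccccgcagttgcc
Uhrf1: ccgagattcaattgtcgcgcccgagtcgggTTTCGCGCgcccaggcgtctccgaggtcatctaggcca

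The Cdk1 window holds 1 E2F word, at -131 from the start, and 2 CHR words, the last at -15. The CHR match begins at 13 in Cdca8 and at -29 in Ube2c, and the E2F match at -185 in a promoter of Uhrf1, which has 2 in the table. Of 30 mitosis genes with a promoter, 24 held the CHR word (80.0%, against 15.7% of genes on the array) and 2 an E2F word. Of 29 replication genes, 12 held an E2F word (41.4%, against 3.8%) and 4 the CHR word.

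None of 35 measured mitosis genes and none of 33 replication genes was called at the adjusted p. At an unadjusted p under 0.05, 22 mitosis and 13 replication genes were above 0, beside 9.09% of all genes, and 0 and 1 below. The median of the mitosis list was 0.534 with all tumours and 0.242 without tumours 3 and 4, and that of the replication list 0.27 and 0.3. Cdk1, the kinase that drives mitosis, ran at 6.73, 6.9, 8.0, 7.92 and 7.8 in the tumours and 5.5 to 6.68 (median 6.24) in wt. All tumours were above wt, tumours 1 and 2 only just, with a difference of 1.26 ± 0.25 (adjusted p = 0.0632). Uhrf1, which maintains DNA methylation at replication forks, ran at 5.22, 4.67, 6.63, 5.94 and 6.81 against 3.94 to 4.77 (median 4.56) in wt (difference 1.42 ± 0.33, adjusted p = 0.0914). Tumour 2 lay in the wt range, and tumours 3 and 5 were highest.

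The other members of lowest p were not called either. Cdca8, of the chromosomal passenger complex, differed by 0.77 ± 0.17, Mad2l1, of the spindle checkpoint, by 0.77 ± 0.17, Ube2c, which feeds the anaphase-promoting complex, by 1.28 ± 0.29, and Cenpe, a kinetochore motor, by 0.47 ± 0.1. Their adjusted p were 0.0775, 0.0775, 0.0910 and 0.0733. Cdc6, which loads the replicative helicase, differed by 1.18 ± 0.28, Rrm2, of ribonucleotide reductase, by 0.73 ± 0.18, and cyclin E2 (Ccne2), which drives entry into S phase, by 0.68 ± 0.2 (adjusted p = 0.100, 0.104 and 0.147). Per array, the replication list had mean levels of 7.07, 6.56, 7.14, 7.03 and 7.63 in tumours 1 to 5 and 6.46 to 7.07 in wt. For mitosis they were 5.05, 5.32, 5.73, 6.13 and 5.41, against 4.77 to 5.22 in wt.

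Smc4, Haus3 and Tmpo are called genes that none of the lists holds, set here after their values were seen. Smc4, a subunit of condensin, had levels of 7.86, 7.76, 8.31, 8.31 and 8.34 against 7.14 to 7.6 (median 7.42) in wt and rose by 0.73 ± 0.13 (adjusted p = 0.0401). Haus3, of the augmin complex of the spindle, rose by 0.53 ± 0.08 and Tmpo, a lamina protein that binds chromatin, by 0.61 ± 0.11 (adjusted p = 0.0270 and 0.0433). They were called in 2, 5 and 1 of the 12 fits, and Tmpo's promoter held an E2F word.

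**Figure D4:**
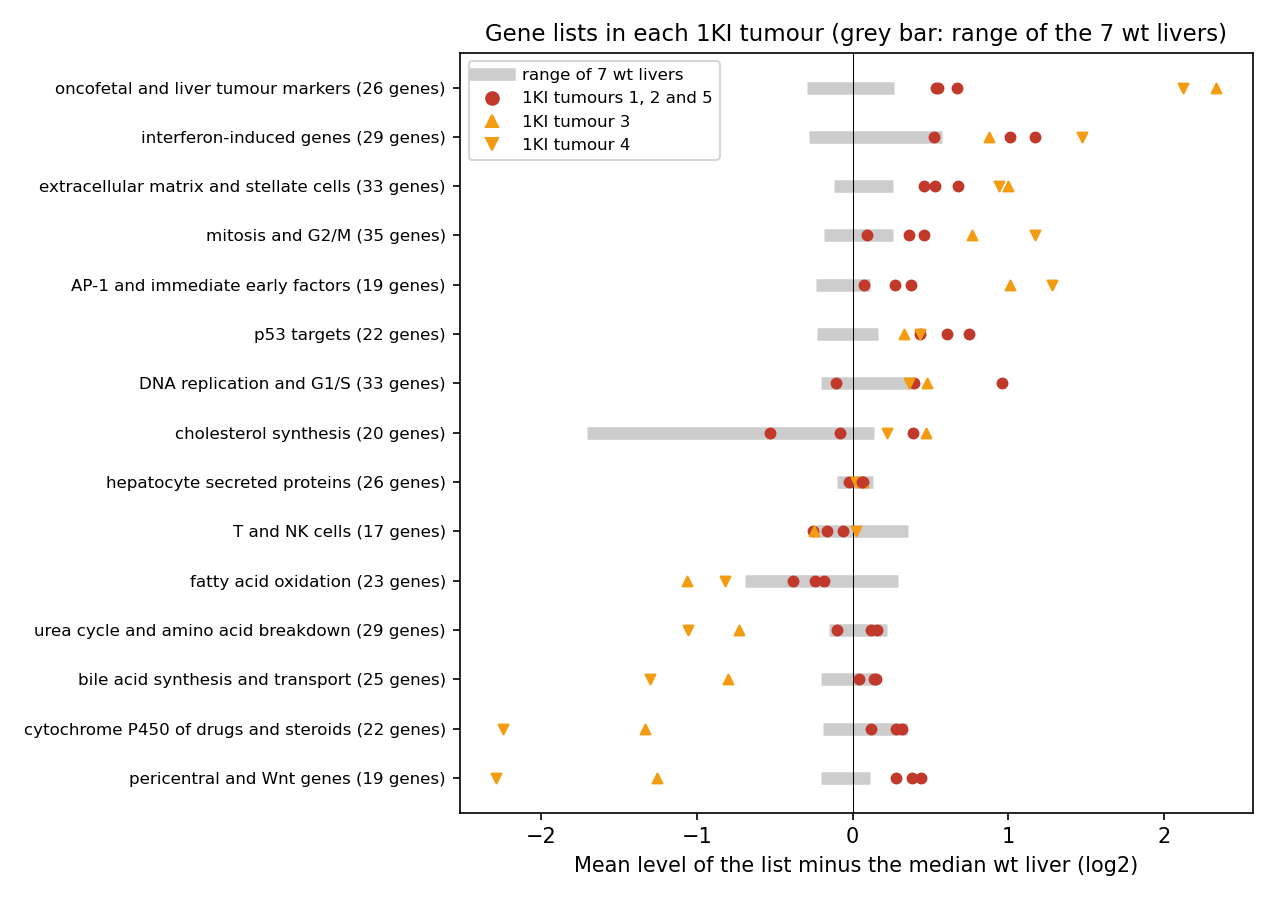
Mean level of 15 gene lists in each 1KI tumour minus the median wt liver (x axis, log2), with the range of the 7 wt livers as a grey bar. Tumours 3 and 4 (orange) are far below the wt range for pericentral, cytochrome P450, bile acid and urea cycle genes, where tumours 1, 2 and 5 (red) lie in or just above it, and all 5 are above it for the matrix and oncofetal lists.

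Hepatocyte metabolism separated the tumours from one another. Pericentral and Wnt genes, which hepatocytes around the central vein express under beta-catenin, had mean levels of 9.69, 9.53, 7.99, 6.96 and 9.63 in tumours 1 to 5 and 9.04 to 9.37 in wt. Tumours 3 and 4 were below every wt liver and tumours 1, 2 and 5 above every one. No member of 19 was called, 15 were below 0 with a median of -0.52, and without tumours 3 and 4 the median was 0.311 with 16 above 0. Glul, glutamine synthetase, ran at 11.5, 11.36, 9.71, 8.67 and 10.92 against 10.74 to 11.32 (median 11.22) in wt, a difference of -0.69 ± 0.41 (adjusted p = 0.357) that turned to 0.14 without tumours 3 and 4. Notum, a Wnt inhibitor induced by Wnt itself, ran at 9.32, 8.72, 6.74, 5.54 and 9.41 against 8.61 to 9.25 (median 8.86) in wt. Its difference turned from -0.98 ± 0.57 (adjusted p = 0.350) to 0.22. Cyp2e1, the ethanol-oxidising P450, ran at 14.08, 14.17, 13.42, 9.57 and 14.04 against 14.04 to 14.24 (median 14.09) in wt, with tumour 4 alone far below.

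The glutamate transporter Slc1a2 ran at 9.26, 8.98, 6.67, 4.67 and 9.0 against 8.77 to 9.85 (median 9.17) in wt (difference -1.41 ± 0.67, adjusted p = 0.270). Cytochrome P450 genes of drugs and steroids had a median of -0.564 over 22 genes with all tumours and 0.141 without tumours 3 and 4. In it Cyp2j5 ran at 12.38, 12.43, 10.62, 10.5 and 12.1 against 12.22 to 12.75 (median 12.58) in wt (adjusted p = 0.177). The receptor Nr1i3, known as CAR, which induces such genes, ran at 10.93, 10.99, 8.48, 8.14 and 10.95 against 10.42 to 11.52 (median 11.12) in wt (difference -1.1 ± 0.5, adjusted p = 0.257, and -0.04 without tumours 3 and 4). Tumours 3 and 4 were the low ones in each of these genes. Cyp2e1 was below every wt liver in tumour 3 too, but by far less than in tumour 4.

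Bile acid genes gave a median of -0.368 over 25 genes, or 0.0115 without tumours 3 and 4. In that list the sterol 12-alpha-hydroxylase Cyp8b1 ran at 10.54, 11.37, 7.93, 7.91 and 10.04 against 10.46 to 11.27 (median 11.02) in wt, and Slc27a5, which activates bile acids, differed by -0.54 ± 0.18 (adjusted p = 0.204 and 0.172). Of 29 urea cycle and amino acid breakdown genes, 28 were below 0 (median -0.247) with all tumours and 14 without tumours 3 and 4 (median 0.0382). Haao, of tryptophan breakdown, differed by -0.69 ± 0.2 (adjusted p = 0.147). Of 23 fatty acid oxidation genes, 20 were below 0 (median -0.372), and without tumours 3 and 4 the median was -0.0839. Decr2 and Etfdh, enzymes of that pathway, differed by -0.59 ± 0.14 and -0.73 ± 0.23 (adjusted p = 0.105 and 0.158).

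Cholesterol synthesis was the reverse in sign, with all 20 measured genes above 0, a median of 0.41 and no call. Cyp51 ran at 10.77, 10.18, 11.01, 10.9 and 10.39 in the tumours and 8.39 to 10.58 (median 10.24) in wt, so the groups overlapped (difference 0.76 ± 0.32, adjusted p = 0.232), and 1 of the 20 had an unadjusted p under 0.05. The list's mean level was 9.38 to 11.23 in wt, with a median of 11.09, and 11.48, 10.56, 11.56, 11.31 and 11.01 in tumours 1 to 5, so tumours 2 and 5 lay below the wt median. Apoa4, a lipoprotein of the hepatocyte secreted list, ran at 13.21, 12.96, 14.59, 14.23 and 13.89 against 11.32 to 13.14 (median 12.78) in wt (difference 1.39 ± 0.37, adjusted p = 0.122). In the unfolded protein and integrated stress response list 24 of 25 genes were above 0 (median 0.32, or 0.128 without tumours 3 and 4). Its mean level was 9.71, 10.25, 10.23, 11.2 and 9.7 in tumours 1 to 5 beside a wt median of 9.72. In that list Ddit3, or CHOP, ran at 7.77, 9.18, 7.94, 10.74 and 7.85 with tumour 4 highest, against 7.26 to 8.16 (median 7.7) in wt (adjusted p = 0.232).

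**Figure D5:**
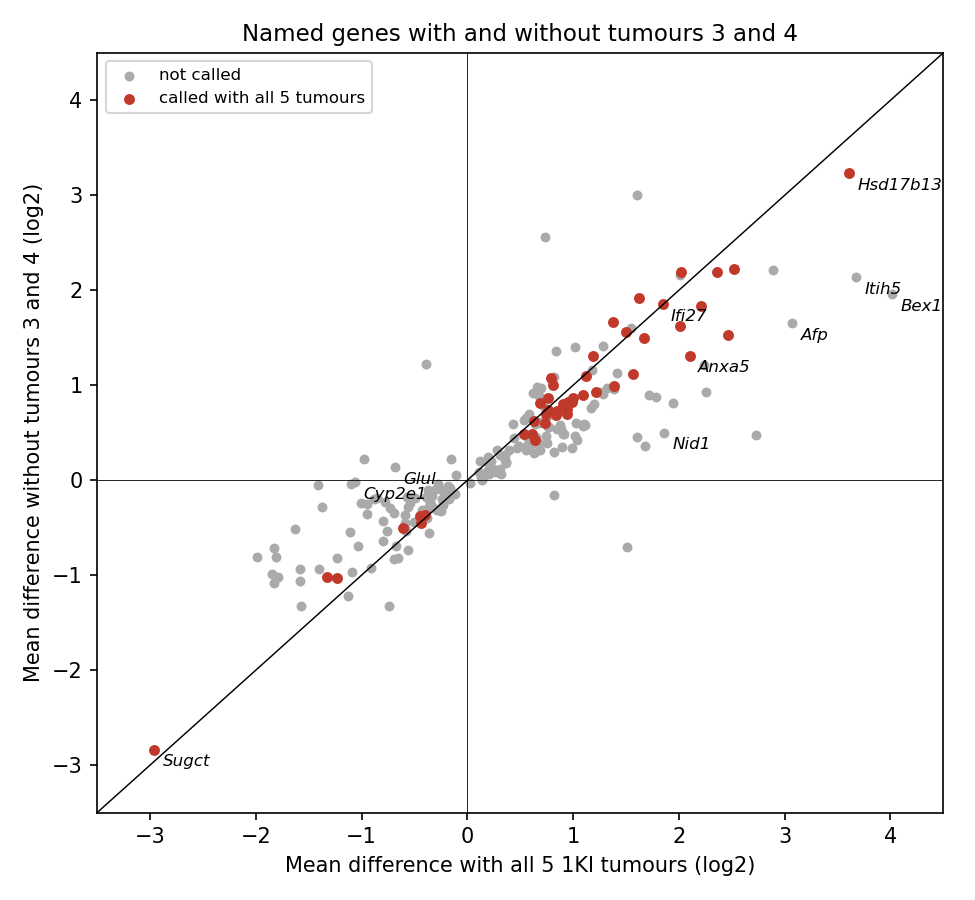
Mean difference between 1KI and wt (log2) of each gene that the rule or the text names, with all 5 tumours (x axis) and without tumours 3 and 4 (y axis), the line marking equal values. The called genes (red) keep 0.619 to 1.37 times their difference, with Ifi27l2b and Anxa5 among those below the line, while Bex1, Itih5, Afp and Nid1 lie well below it and Glul crosses 0.

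Of the 7 genes called lower, Sugct was described above. Meiob, a meiosis gene, had levels of 7.36, 7.16, 6.98, 6.58 and 7.33 in the tumours and 7.7 to 8.99 (median 8.34) in wt, and fell by 1.23 (SE 0.22, adjusted p = 0.0457, 2 of 12 fits). The transcript 1810046K07Rik fell by 1.33 (SE 0.23, adjusted p = 0.0384, 3 of 12 fits), with its highest tumour at 6.78 beside a lowest wt liver at 6.79. Apip, an enzyme of methionine salvage, had levels of 8.84, 8.89, 8.73, 8.83 and 8.86 against 9.11 to 9.33 (median 9.22) in wt, a narrow but separate pair of ranges. Its difference was -0.4 ± 0.06 (adjusted p = 0.0270, 7 of 12 fits).

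Nmnat3, which makes NAD in mitochondria, Anp32a, a chromatin and phosphatase regulator, and 1810021B22Rik differed by -0.45 ± 0.08, -0.44 ± 0.08 and -0.61 ± 0.1. Their adjusted p were 0.0472, 0.0384 and 0.0324. The decreases of largest size that missed the threshold, with all tumours below wt, included the muscle LIM protein Csrp3 at 9.05, 8.42, 6.52, 7.58 and 8.56 against 9.37 to 9.85 (median 9.57) in wt (difference -1.58 ± 0.34, adjusted p = 0.0774). Ankrd33b, Cnmd, Gna14 and Plekhb1 differed by -1.59 ± 0.31, -1.83 ± 0.44, -1.79 ± 0.41 and -1.82 ± 0.56 (adjusted p = 0.0567, 0.103, 0.0931 and 0.154).

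Several called genes belong to none of the lists. Gria3, a glutamate receptor subunit, had levels of 6.07, 5.61, 6.37, 6.4 and 6.01 in the tumours and 4.73 to 5.25 (median 5.0) in wt and rose by 1.09 ± 0.14 (adjusted p = 0.0105). A second probe set of Gria3 gave 2.13, and Gria3 was among the 40% dimmest genes. Ahnak, a giant scaffold protein of the cell membrane, had levels of 7.28, 7.38, 7.42, 7.73 and 7.19 against 6.35 to 6.84 (median 6.49) in wt and rose by 0.85 ± 0.11 (adjusted p = 0.0105). The other 3 probe sets of Ahnak gave -0.34, -0.05 and 0.46, and with the mean of its probe sets Ahnak was not called. Both genes were called in each fit without 1 array.

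Lhfp rose by 0.76 ± 0.12 (adjusted p = 0.0270, 8 of 12 fits), from 7.43 to 8.02 (median 7.55) in wt to 8.67, 8.52, 8.27, 8.2 and 8.33 in the tumours. Tmem43, a protein of the inner nuclear membrane, rose by 1.19 ± 0.17 and Fxyd3, a regulator of the sodium pump, by 0.69 ± 0.1 (adjusted p = 0.0205 and 0.0160, 9 and 10 of 12 fits). Cpeb1, which controls polyadenylation of mRNAs, had levels of 5.88, 5.45, 6.89, 6.91 and 6.06 against 4.18 to 5.07 (median 4.62) in wt, highest in tumours 3 and 4, and rose by 1.57 ± 0.25 (adjusted p = 0.0272, 5 of 12 fits). Dpysl2, a microtubule protein of growing axons, rose by 0.94 ± 0.15 and Nudt18, which hydrolyses oxidised nucleotides, by 0.95 ± 0.17 (adjusted p = 0.0270 and 0.0408). Npdc1 ran at 7.94, 7.32, 9.93, 9.97 and 7.83 against 6.53 to 7.04 (median 6.87) in wt, with tumours 3 and 4 highest, and missed the threshold with all tumours (adjusted p = 0.0971). Of the 45 called genes, 26 had more than 1 probe set, and 32 of their 39 further probe sets differed in the same direction. Second, dimmer probe sets of Dpysl2, Tnc and Tmem43 gave 0.03, 0.05 and -0.17. With the mean of a gene's probe sets, neither these genes nor Plk2 were called.

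No member of the immune cell lists, which do not hold Mmp12, was called with all tumours. The counts of signs in these lists stand beside 43.4% of all genes above 0. For scale, 3 of 15 measured markers of pancreas, adipocytes and muscle were above 0 and 12 below (median -0.109). Of 17 measured T and NK cell genes, 1 was above 0 and 16 were below (median -0.144). Cd4 and Cd3e differed by -0.4 ± 0.14 and -0.29 ± 0.11 (adjusted p = 0.177 and 0.193). Neutrophil genes had 1 of 13 above 0 (median -0.216), with the calgranulin S100a9 at -0.69 ± 0.26 (adjusted p = 0.196), and B and plasma cell genes 4 of 13 (median -0.13). The immunoglobulin heavy chain gene Ighm ran at 8.14, 7.72, 7.52, 7.37 and 8.38 in the tumours and 8.15 to 10.51 (median 9.2) in wt (difference -1.58 ± 0.34, adjusted p = 0.0774).

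Macrophage and Kupffer cell genes had 9 of 24 above 0 and a median of -0.144. Without tumours 3 and 4 their median was -0.052 and 1 of them was called higher, beside 0.220% of all genes called in either direction. Cd163, a scavenger receptor of Kupffer cells, ran at 4.24, 6.07, 3.85, 3.17 and 6.68 against 5.69 to 7.36 (median 6.85) in wt, lowest in tumours 3 and 4 (difference -1.84 ± 0.55, adjusted p = 0.147). Ccr2, of recruited monocytes, differed by -0.38 ± 0.11, while Itgax and Gpnmb, of activated macrophages, differed by 0.61 ± 0.17 and 0.53 ± 0.13 (adjusted p = 0.137, 0.141 and 0.114). All 7 erythroid genes were below 0 (median -0.169), among them the factor Klf1 at -1.03 ± 0.28 (adjusted p = 0.133). Saa4, an apolipoprotein of the acute phase list, had every tumour below every wt liver and differed by -0.91 ± 0.22 (adjusted p = 0.104), and 16 of the 21 acute phase genes were below 0. Per array, the mean level of the T and NK list ran at 4.9 to 5.18 in the tumours and 4.92 to 5.51 in wt. That of the erythroid list ran at 4.75 to 5.1 and 5.06 to 5.45. Both lists lay near or below the array medians (5.48 to 5.53 in wt), and the part of dim signal in these signs was not tested.

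Genes that differ by sex were wide within both groups. Cyp4a12a, a P450 of male liver, ran at 6.16, 13.04, 11.15, 6.86 and 6.59 in the tumours and 4.73 to 12.63 (median 11.65) in wt, and female tumours 1 and 5 and male tumour 4 were the low ones. Prom1, of the female-biased list, ran at 8.94, 6.35, 8.94, 10.62 and 8.97 against 3.83 to 9.01 (median 4.4) in wt (difference 2.89 ± 1.06, adjusted p = 0.193). With sex as a covariate, 76 genes were higher and 18 lower, and all 45 called genes were among them. No call was made among 30 proteasome genes (median 0.0205), 18 circadian clock genes (median -0.0137) and 18 ribosomal protein genes (median 0.127, or 0.000919 without tumours 3 and 4). None of 30 respiratory chain genes was called, 27 were below 0, and their median of -0.146 was -0.0176 without tumours 3 and 4. The mean level of that list was 11.7 and 11.64 in these 2 tumours, below the lowest wt liver at 11.96.

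Values in the other groups of the study are set beside the 1KI differences, with the same wt mice as controls and no test. Jun differed from wt by 1.68 ± 0.25 in 1KI tumours and by 1.71 in 3bKI tumours, and its 3aKO mean was 7.22 beside a wt mean of 7.41. Ifi27 differed by 1.21 in 3bKI, Oas1a by 1.55 and Usp18 by 1.84. Igf2 differed by 1.48 in 3bKI, Mmp12 by 1.92, Gstm3 by 1.66 and Phlda3 by 1.27. Sparcl1 and Cpeb1 differed by 0.22 and 0.35 there, beside 2.36 ± 0.28 and 1.57 ± 0.25 in 1KI. The 3bKI values come from the other normalization, and the levels of both tumour groups were not set against each other.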

How the data were processed

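RNA of mouse liver was measured on Affymetrix arrays from total RNA taken with Trizol, per the labels' protocols. The deposited values are log2 signals per probe set that the authors summarised and normalized in 2 runs, of which the first was used. The method and the counterpart of depth are not given in the sources used here, and the number of arrays limits the precision.

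Of 45101 probe sets, 34945 with 1 gene symbol were kept (932 had several, 9160 none, 64 were controls). Each of 18193 genes was represented by its probe set of highest mean over the 12 arrays, a choice made for 9010 genes. The 5 1KI and 7 wt arrays were compared by limma 3.58.1 under R 4.3.3 (linear model, then eBayes moderation), with two-sided p adjusted by Benjamini-Hochberg over all genes. A gene was called at an adjusted p under 0.05, and values after ± are moderated standard errors.

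The comparison, the 41 gene lists (845 genes measured) and the alternatives were chosen with earlier results of these data known. Lists are described by counts and medians and were not tested. Named genes are the E2F family, the called genes with a log2 difference of at least 1, the 15 other called genes of smallest p, up to 4 members of each list (called ones first), the 8 largest increases and 8 largest decreases without a call or overlap, and the 10 genes that varied most among the tumours. Remaining called genes and the genes marked as such were named after their values were seen. Some lists share genes. Promoters came from RefSeq.

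Replicate numbers shared by 1KI and wt did not pair the arrays: the correlation of same-numbered deviations was -0.194 to 0.014. Scaling, filters, probe set choice, variance models, sex and single arrays were varied, as given in the closing section.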

Additional observations from a re-analysis of the deposited data

Results flagged for a closer look

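Among the values of 128 genes in the 2 groups, 12 of 256 groups of arrays had 1 array far from the others by Dixon's criterion, and 12.8 would be expected by chance, which picks out about 5% of groups. In wt, the high arrays were wt 2 for Yae1d1 at 8.14, wt 3 for Hsd17b13 at 11.24, wt 4 for Slc1a2 at 9.85, wt 5 for E2f7 at 7.20, and wt 6 for Cyp2c37 at 10.18 and Oasl1 at 8.07. The low wt array was wt 7 for Etfdh at 10.86. In 1KI, tumour 4 was high for Atf3 at 10.50, Srxn1 at 11.36 and Nudt18 at 9.61 and low for Cyp2e1 at 9.57, and tumour 2 was low for Timp3 at 8.37. Of the called genes, Yae1d1, Hsd17b13, Nudt18 and Timp3 are among these.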

How the results depend on the processing

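With all arrays, 38 genes were higher and 7 lower. Quantile normalization gave 23 higher and 8 lower genes, and the mean of a gene's probe sets 27 and 4. A fit that added the 3aKO arrays as a group gave 217 and 94, array weights 61 and 9, sex as a covariate 76 and 18, and an unmoderated pooled-variance test 5 and 3. Without 1KI 3 and 4 together there were 38 and 2. When each array was left out in turn, higher genes numbered 5 to 59 and lower genes 1 to 15. With the replicate number as a block, 1 gene (Ifi27) was higher and 0 were lower. The numbers do not pair the arrays, and this fit rests on the 5 numbers that both groups share. Median centring and eBayes with trend and robust kept both counts within 1.5 times. Without the 40% dimmest genes, 53 were higher and 8 lower of 10916 genes, and a test of every probe set gave 55 and 8 of 34945 probe sets. These counts were also within 1.5 times, but they come from other totals than 18193 genes. Among probe sets a gene can count more than once. The dimmest genes held the called Gria3, Mmp12, Sparcl1, Tnc, Cpeb1 and Ddit4l. Of the 45 calls with all arrays, quantile normalization kept 23 higher and 7 lower, the mean of probe sets 24 and 4, the unmoderated test 5 and 2, and the fits with sex or with 3aKO kept all 38 and 7. Without 1KI 3 and 4 together, the differences of Glul and Notum, neither called, turned to 0.14 and 0.22, and the cause was not tested. The 5 tumours came with 1 genotype and 2 of them stood apart, so the counts describe these samples.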
